A study of Rattus norvegicus with 16 samples.

Results

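The 8 genes described here, of 13596 listed in all 16 libraries, are known from tendon, ligament and other dense fibrous tissue, and were followed through the cells of the rat intervertebral disc (IVD). They were Scx, Mkx, Tnmd, Tnc, Comp, Fibin, Myoc and Pla2g2a, chosen by name because earlier results on these same cells placed them in the outer annulus fibrosus (OAF). Myoc and Fibin also belong to the genes by which the study recognised its OAF cells. Their levels in OAF against other disc cells are therefore given as a description with no test.

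Discs came from 8 male Sprague-Dawley rats operated on at 8 weeks of age, with 4 rats killed 2 weeks and 4 rats killed 8 weeks later. In every rat the L4-5 and L5-6 discs were stabbed once with a needle and pooled as the lumbar disc puncture (LDP) library, and the uninjured L2-3 and L3-4 discs were pooled as the control (CON) library. Each of the 4 groups (CON and LDP at 2 weeks in rats 1 to 4, CON and LDP at 8 weeks in rats 5 to 8) therefore held 4 libraries of 3′ single-cell RNA. Muscle, ligament and attachments had been dissected away. All control discs came from rats that had also been punctured, and they lay at higher lumbar levels than the punctured discs, so puncture and lumbar level cannot be told apart. Hoxd10, a homeobox gene of position along the body axis, stood at 0.596 to 0.997 CPM in CON and 7.95 to 12.9 CPM in LDP disc cells at 8 weeks, and its part in the results below was not tested.

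The outer annulus is the collagen I-rich rim of the disc, and it resembles tendon and ligament in its aligned fibres and its cells. In tendon, the transcription factors Scleraxis (Scx) and Mohawk (Mkx) are needed for normal collagen fibre formation, and tenomodulin (Tnmd), a membrane protein of mature tendon cells, lies downstream of Scx. Tenascin-C (Tnc) and cartilage oligomeric matrix protein (Comp) are matrix glycoproteins of tissues under mechanical load.

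The files held 149272 cells (2221 to 15918 per library, median depth 3861 to 8092 UMIs per cell), of which 127077 were of the IVD class. At 2 weeks the disc cells carried 3 subcluster numbers and no names. The names used here are NP for the nucleus pulposus, the soft centre of the disc, IAF for the inner annulus, and OAF, and the OAF subcluster was the one with the highest Col1a1, Lum, Igfbp5 and Igfbp6. OAF cells held 35356 to 68375 CPM of Col1a1 and 258 to 526 CPM of Acan, against 1634 to 8469 and 2804 to 4567 CPM in NP and IAF cells. In LDP, NP was taken as the deeper of the pair with high Acan, as in CON, and these names are uncertain. Col1a1, which the study describes as modestly higher in IAF than in NP cells, was lower in the LDP cells called IAF (1634 to 2474 CPM) than in those called NP (1896 to 4021 CPM) in 4 of 4 rats, and the former carry number 1, the number of NP in CON. Cd24, S100b and Acan, which the study uses for NP, ran as named, higher in the LDP cells called NP in 4 of 4 rats (Cd24 278 to 695 CPM, against 259.6 to 574 CPM in those called IAF). Pdia4 was lower there in 3 of 4 rats, as in CON. Col2a1, which the study also uses for NP, was lower there in 3 of 4 rats, and in 2 of 4 in CON. The markers thus go both ways, and the counts of members that rest on them are also given with the names exchanged. Subclusters had been drawn separately in CON and LDP, and at 8 weeks no subcluster was given. Any pair of libraries shared at most 75 cell barcodes (0.720% of the smaller library), and 2 libraries stood apart in size, CON rat 2 at 2 weeks with 3398 disc cells (others of its group 9741 to 12283) and LDP rat 6 at 8 weeks with 1313 (others 6100 to 8728). In a mean over the IVD class, fewer cells of a type and less RNA per cell cannot be told apart.

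Levels are means of CPM, the counts of a gene scaled by the total of its cell, over the cells of a library, from UMIs at the 3′ end, so that transcript length does not enter them. RefSeq promoter entries (build GRCr8) were found for 6 of the 8 genes, and the 250 bases before the start are shown for Tnmd and Myoc, the pair with the highest median ratios of OAF to NP cells. Capitals mark E-boxes (CANNTG, the same on both strands), the letters that Scx and other basic helix-loop-helix factors bind.
Tnmd, chrX:101350182-101350431, plus strand: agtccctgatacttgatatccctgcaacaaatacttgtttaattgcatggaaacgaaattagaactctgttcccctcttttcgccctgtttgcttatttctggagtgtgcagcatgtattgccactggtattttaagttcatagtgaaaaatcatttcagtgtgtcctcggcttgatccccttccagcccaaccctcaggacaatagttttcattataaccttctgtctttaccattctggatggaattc
Myoc, chr13:77509713-77509962, plus strand: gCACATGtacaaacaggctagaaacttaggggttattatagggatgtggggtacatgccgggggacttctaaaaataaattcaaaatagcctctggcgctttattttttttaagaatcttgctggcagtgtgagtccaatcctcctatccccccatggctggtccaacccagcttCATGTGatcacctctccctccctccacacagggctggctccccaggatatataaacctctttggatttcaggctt
The Tnmd stretch held 0 E-boxes and the Myoc stretch 2 (CACATG and CATGTG). Of the 7 entries of these 6 genes (Mkx has 2), 4 held an E-box in this window, beside 65.5% of the 33469 promoters in the table. Matches of letters are a description and not binding sites.

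In each of the 8 libraries of 2 weeks, all members but Comp were highest in OAF cells. The median ratio of OAF to NP cells ran from 4.01 for Fibin and 5.18 for Mkx to 156 for Myoc. With the names NP and IAF exchanged in LDP, these medians were 3.57 for Fibin, 5.23 for Mkx and 217 for Myoc. The plot of levels by subcluster shows every library.

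**Figure D1:**
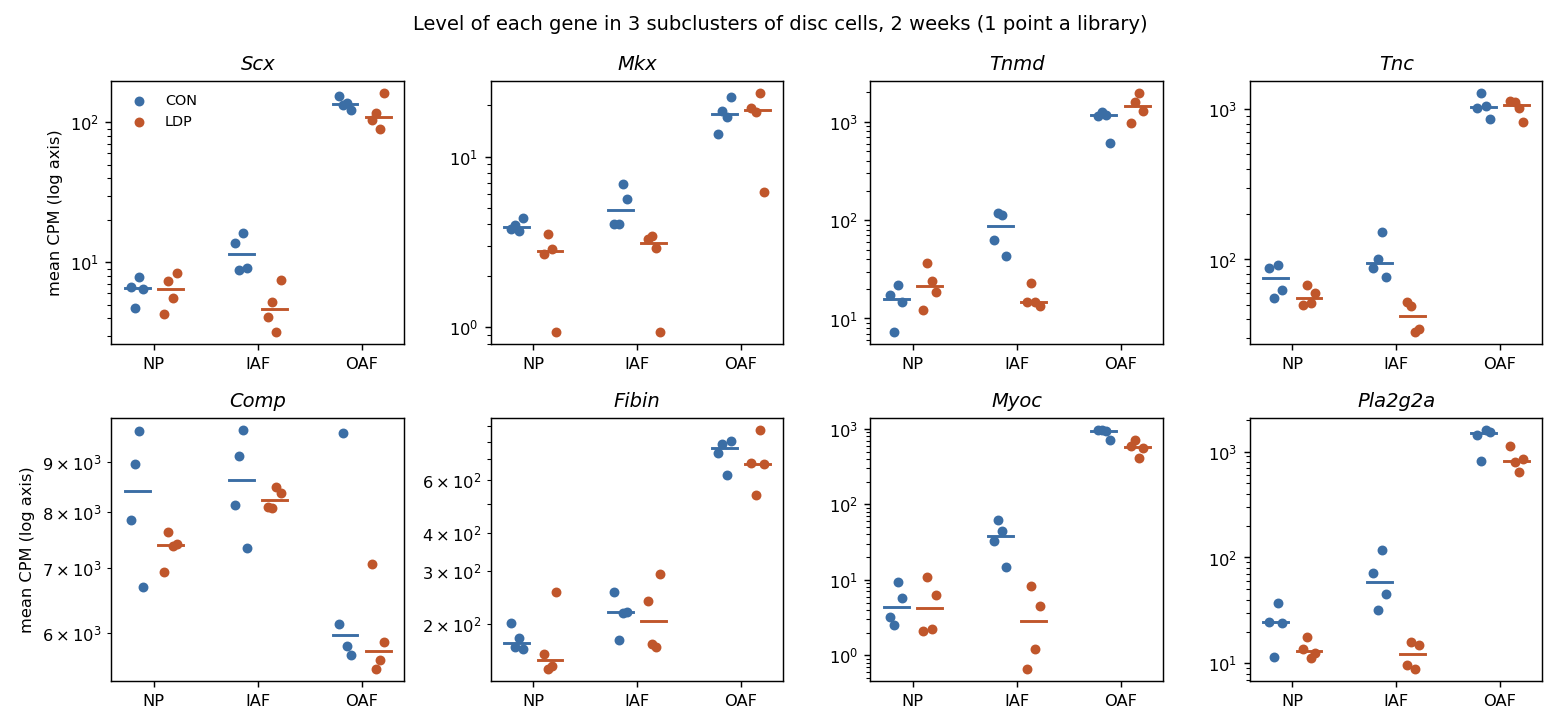
Mean CPM (log axis) of each gene in NP, IAF and OAF cells at 2 weeks, 1 point for each of the 4 CON (blue) and 4 LDP (orange) libraries, with bars at the medians. All genes but Comp were highest in OAF cells of both groups. In IAF cells the LDP points of 6 genes lay below all CON points, as for 7.21% of all genes, with the names NP and IAF uncertain in LDP.

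Scx, the tendon transcription factor, stood in OAF cells at 155, 133, 137 and 123 CPM in CON rats 1 to 4 and at 103, 116, 90.2 and 162 CPM in LDP rats 1 to 4. The groups overlapped, and the LDP library of rat 4 was the highest of all. In NP cells Scx was at 4.30 to 8.43 CPM and in IAF cells at 3.17 to 16.2 CPM, so that OAF cells held a median of 19.2 times the NP level (15.7 to 28.0 over 8 libraries).

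Mkx, a homeobox factor of tendon, was the least abundant member. OAF cells held 13.6, 18.4, 17.0 and 22.5 CPM in CON and 19.2, 18.2, 23.6 and 6.23 CPM in LDP, with LDP rat 4 far below the other 7 libraries. The ratio of OAF to NP cells was 3.63 to 8.16. In rat 4 the LDP library was also lowest in NP and IAF cells (0.935 and 0.940 CPM), so its low Mkx was seen in each of the 3 subclusters.

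Tnmd stood at 1136, 1244, 1181 and 609 CPM in CON and at 961, 1582, 1959.9 and 1285 CPM in LDP OAF cells. LDP rats 2, 3 and 4 were above all CON libraries, while LDP rat 1 lay within them. OAF cells held a median of 67.2 times the NP level (41.7 to 172). Against IAF cells the median ratio was 12.3 in CON (10.5 to 18.1) and 82.3 in LDP (64.7 to 134), where it was 74.0 (43.5 to 81.8) with the names exchanged.

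Tnc stood at 1023, 1281, 1051 and 855 CPM in CON and 1136, 1119.5, 1015 and 821 CPM in LDP OAF cells, with the groups overlapping almost completely. Its ratio of OAF to NP cells had a median of 15.0 (11.4 to 23.3). Outside the disc cells, the unnamed class of 2 weeks held 20.1 to 205 CPM of Tnc. It also held 24.4 to 200 CPM of Fibin, 4.90 to 143 CPM of Tnmd and 0 to 91.1 CPM of Myoc. This class was small, with 23 cells in LDP rat 1 and 100 to 730 in the other libraries of 2 weeks.

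Comp was the exception to the label. It reached 5694 to 9642 CPM in CON and 5516 to 7066 CPM in LDP OAF cells, but 6695 to 9689 CPM in NP and 7344 to 9709 CPM in IAF cells, a median ratio of OAF to NP of 0.788 (0.601 to 1.08). At 2 weeks its mean was 358 to 1187 CPM in endothelial, 527 to 1268 CPM in myeloid and 377 to 1262 CPM in lymphoid cells. It was 579 to 6578 CPM in the unnamed class. Whether these values are expression by those cells was not tested. Among disc cells Comp was thus a transcript of all subclusters, and its levels go against calling it an outer annulus gene.

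Fibin, a secreted protein first described in fin bud development, stood at 736, 786, 623 and 804 CPM in CON and 681, 533, 877 and 674 CPM in LDP OAF cells. The groups overlapped. NP cells held 142 to 254 CPM, and the OAF to NP ratio was 2.65 to 6.05.

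Myoc, which encodes the secreted glycoprotein myocilin, stood at 975, 973, 923 and 712 CPM in CON OAF cells and 591, 702, 408 and 559 CPM in LDP OAF cells. Every LDP library lay below every CON library. NP cells held 2.10 to 10.8 CPM, and the median ratio of OAF to NP, 156 (64.9 to 387), was the highest of the members. Endothelial cells at 2 weeks held 0 to 32.1 CPM of Myoc, beside 1.48 to 13.1 CPM of Tnmd and 1.79 to 19.5 CPM of Pla2g2a.

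Pla2g2a, a secreted phospholipase that releases fatty acids from membrane lipids, stood at 1430.2, 813, 1608 and 1544 CPM in CON and 1134, 793, 635 and 852 CPM in LDP OAF cells. LDP was lower than CON in 4 of 4 rats, but CON rat 2 fell among the LDP libraries. OAF cells held a median of 60.8 times the NP level (43.3 to 82.7).

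OAF cells were 6.29 to 16.4% of disc cells. They held 82.7 to 96.8% of the disc UMIs of Myoc, 75.2 to 90.6% of those of Pla2g2a and 70.3 to 93.9% of those of Tnmd. For Scx and Tnc the shares were 57.7 to 79.0% and 50.6 to 73.6%, for Mkx 23.1 to 45.9%, for Fibin 15.5 to 38.2% and for Comp 4.58 to 13.1%. By this measure Myoc, Pla2g2a and Tnmd were genes of the OAF cells, while most Fibin and Mkx transcripts came from the far more numerous NP and IAF cells.

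Not every OAF cell had a UMI of these genes. With each cell thinned to 1000 UMIs, 24.8 to 49.0% of OAF cells had Tnmd, against 0 to 1.49% of endothelial cells, which should lack it. With all UMIs counted these shares were 40.6 to 68.3% and 0.389 to 2.68%, at median depths of 3258 to 7178 UMIs in OAF and 1685 to 3511 UMIs in endothelial cells. Thinning left out 3 of 4222 CON and 39 of 5202 LDP OAF cells, and 156 of 3103 and 122 of 3292 endothelial cells.

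Thinned shares of OAF cells were 37.4 to 56.2% for Tnc, 31.3 to 45.6% for Fibin, 17.3 to 32.3% for Pla2g2a and 12.8 to 28.6% for Myoc. In endothelial cells they were 0.919 to 2.33% for Tnc, 0.302 to 2.98% for Fibin, 0 to 1.38% for Pla2g2a and 0 to 1.91% for Myoc. Scx was seen in 7.39 to 11.8% of OAF and 0 to 0.186% of endothelial cells, and Mkx in 0.446 to 2.13% and 0 to 0.170%. Comp was seen in 29.3 to 60.9% of endothelial cells.

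Within OAF cells the members did not all lie in the same cells. Cells with a UMI of Scx, Tnmd, Tnc or Fibin had the other 3 of these genes at higher shares than cells without it, cells with Myoc had Pla2g2a at higher shares, and cells with Myoc had Scx and Fibin at lower shares than cells without it. Each statement compares, within a library and at 1000 UMIs per cell, the share of cells with a partner gene among cells with and without a given gene. The values are a description of sparse counts, with no test.

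Scx was found in 9.90 to 21.2% of OAF cells with Tnmd and 3.37 to 7.83% of those without it, a median ratio of 3.05 that was above 1 in 8 of 8 libraries. Tnc was found in 55.8 to 69.9% of cells with Tnmd and 27.3 to 45.7% of those without it. For Fibin with Tnmd the median ratio was 1.63 (1.40 to 2.22). All ratios among Scx, Tnmd, Tnc and Fibin were above 1 in 8 of 8 libraries.

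Pla2g2a was found in 33.1 to 59.7% of cells with Myoc and 13.3 to 30.5% of those without it, a median ratio of 2.39 (1.22 to 3.16). Scx, in contrast, was found in 2.90 to 7.69% of cells with Myoc and 8.12 to 14.1% of those without it, a median ratio of 0.500 that was below 1 in 8 of 8 libraries. For Fibin the shares were 16.4 to 38.4% and 33.4 to 50.0%, with a median ratio of 0.622. Myoc with Tnmd had no direction shared by all libraries, with a median ratio of 1.13 that was above 1 in 5 of 8 libraries.

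Some OAF cells of the LDP libraries carried pericyte and Schwann cell transcripts. Without every cell that had a UMI of Acta2, Myh11, Rgs5, Sox10 or Cdh19 (1.98 to 3.47% of CON and 11.5 to 15.7% of LDP OAF cells), the median ratio of Scx with Tnmd was 2.71 (above 1 in 7 of 8 libraries), that of Pla2g2a with Myoc was 2.12 and that of Scx with Myoc was 0.438. The directions of these medians did not change. That of Myoc with Tnmd did, from a median ratio of 1.13 to 0.935 (above 1 in 2 of 8 libraries).

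**Figure D2:**
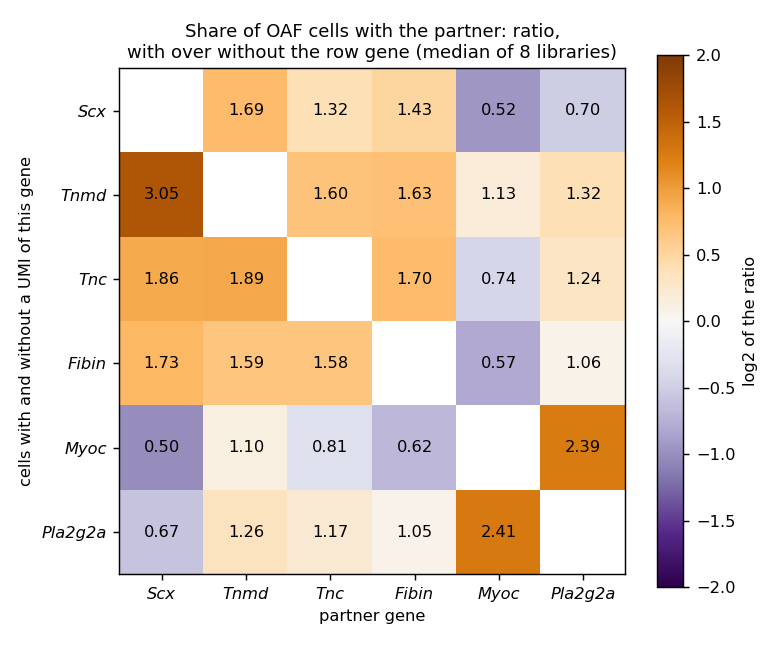
Median over the 8 libraries of 2 weeks of the share of OAF cells with the partner gene (columns) among cells with a UMI of the row gene, divided by the share among cells without it, at 1000 UMIs per cell. Orange is above 1 and purple below 1, with values of 2.39 and 2.41 for Myoc and Pla2g2a and of 0.500 and 0.522 for Myoc and Scx.

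Over 24 points (NP, IAF and OAF cells of 8 libraries), the genes with the pattern most like each member were listed from 8591 genes with at least 5 CPM in 8 points. Scx was closest to Tmem119, Mmp2 and C1qtnf2 (Pearson's r 0.99 each), and Tnc to Col1a1, Dpysl3 and Mmp2 (0.99 each). Tnmd was closest to Olfml2b, Fam198b and Gpm6b (0.98 to 0.99), Myoc to Lum, Fam198b and Igfbp6 (0.98 to 0.99), and Pla2g2a to Igfbp6, Marcks and Mmp2 (0.99). Fibin was closest to Plgrkt, Pcolce and Cldn22 (0.97 to 0.98) and Mkx to Lonrf3, Ccdc3 and Ptprg (0.98). For Comp no gene was close, with Rnf34 first at 0.78. The points share libraries and the same contrast of OAF with other cells, so high values are a description of that contrast.

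Puncture was compared with control first within the OAF cells of 2 weeks, to see whether these cells changed their own levels. None of the 8 members passed the test. The log2 differences of Myoc and Pla2g2a were the most negative, and that of Tnmd was the only positive one. limma on log2(mean CPM + 1), with the rat as block and Benjamini-Hochberg adjustment over 11667 genes, called 1.47% of the genes (172, with 155 higher in LDP).

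Myoc (565 ± 121 CPM in LDP, 896 ± 125 in CON, SD, n = 4) differed by −0.68 ± 0.16 (SE) on the log2 scale, with an adjusted p of 0.0904 by limma. It was lower in 4 of 4 rats (−1.18 to −0.35) and its groups did not overlap, as for 4.02% of all genes in that direction. Pla2g2a (853 ± 208 and 1349 ± 364 CPM) differed by −0.64 ± 0.20, adjusted p 0.262, and Tnmd (1447 ± 426 and 1043 ± 292 CPM) by 0.48 ± 0.20, adjusted p 0.411. Myoc was past the threshold with DESeq2 (adjusted p 0.0217) and without rat 4 (0.0240).

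The remaining 5 members had differences of −0.24 (Scx), −0.20 (Mkx), −0.15 (Comp), −0.11 (Fibin) and −0.04 (Tnc), with adjusted p from 0.666 to 0.936 by limma. Of these, Scx, Fibin and Tnc had a positive sign with the TMM scaling of edgeR (0.07, 0.02 and 0.14). The median of the 8 members was −0.18 and that of all 11667 genes −0.09. The ratio of Tnmd to Myoc in OAF cells was 1.17, 1.28, 1.28 and 0.855 in CON and 1.63, 2.25, 4.80 and 2.30 in LDP, so that it was higher in all LDP libraries. This ratio was chosen after the values had been seen and has no test.

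Other cell types moved with this comparison. In LDP OAF cells 5 of 8 pericyte and smooth muscle genes and 3 of 4 Schwann cell genes were called higher (adjusted p under 0.05 by limma), among them Myh11 by 4.51 and Cdh19 by 4.23 on the log2 scale. Their summed level was 90.0 to 121 CPM in CON and 589 to 901 CPM in LDP for pericyte genes, and 209.6 to 283 and 297 to 421 CPM for the 3 Schwann cell genes listed in every library. Most of the Schwann cell sum was S100b, which disc cells also express (209 to 279.8 CPM in CON, 213 to 321 CPM in LDP) and which was not called. The summed level of the fibroblast list was lower in all LDP libraries, at 5380 to 6766 CPM in CON and 3099 to 4967 CPM in LDP, and 2 of its 8 genes tested were called lower by limma (Pdgfra by −0.82 and Clec3b by −1.23). Bone genes overlapped, at 177 to 2191 CPM in CON and 472 to 3529 CPM in LDP, and 0 of 7 were called. The part of these cell types in the members' values was not tested. In CON the pericyte gene Myh11 and the Schwann cell gene Cdh19 were higher in the unnamed class than in OAF cells. Myh11 stood at 472 to 1939.9 CPM there and 3.95 to 7.82 CPM in OAF cells, and Cdh19 at 65.4 to 155 and 0.282 to 1.08 CPM. CON IAF cells held 4.89 to 43.5 CPM of Myh11.

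Without the OAF cells that had a UMI of Acta2, Myh11, Rgs5, Sox10 or Cdh19, 19 genes were called in OAF cells by limma (18 higher in LDP) in place of 172. Myoc then differed by −0.52 (adjusted p 0.545), with LDP at 694, 799, 443 and 641 CPM and CON at 990.3, 993, 934 and 727 CPM, and the groups overlapped. Tnmd differed by 0.65 (adjusted p 0.477), and the signs of Tnc, Fibin and Comp became positive (0.11, 0.07 and 0.02). The pericyte sum was then 79.5 to 101 CPM in CON and 81.3 to 106 CPM in LDP. Acta2, Myh11 and Rgs5 of that list were 0 by the choice of cells, so the sum does not show that pericytes were gone. Not all Schwann cell transcripts were gone, with Mbp, a myelin protein gene, at 0 to 3.15 CPM in CON and 12.1 to 62.8 CPM in LDP. The summed fibroblast level still did not overlap, at 5391 to 6877 CPM in CON and 3334 to 4942 CPM in LDP. The ratio of Tnmd to Myoc was 0.852 to 1.29 in CON and 1.62 to 4.93 in LDP without these cells.

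In IAF cells of 2 weeks, 6 of the 8 members were lower in all LDP libraries than in any CON library, as was the case for 7.21% of the 10854 genes compared. Tnmd stood at 62.9, 117, 112 and 43.3 CPM in CON and 14.9, 22.7, 14.6 and 13.5 CPM in LDP, and Myoc at 32.8, 61.8, 44.3 and 15.0 and at 0.659, 8.19, 1.22 and 4.47 CPM. Pla2g2a, Scx, Tnc and Mkx also did not overlap, whereas Fibin and Comp did. Other OAF genes were lower too (Col1a1 3203 to 8469 CPM in CON and 1634 to 2474 in LDP, Lum 50.1 to 127 and 8.40 to 27.7 CPM). CON IAF cells also held transcripts of other cell types, with the pericyte gene Rgs5 at 1.87 to 62.9 CPM (LDP 0.545 to 6.51). The endothelial gene Cdh5 stood at 3.84 to 80.8 CPM (LDP 0.530 to 5.04), while Des of the pericyte list was alike (12.5 to 21.7 and 11.6 to 21.9 CPM). Depth in IAF cells did not overlap either, with medians of 2442 to 3789 UMIs in CON and 4099.5 to 6403 UMIs in LDP. CON rat 2 held only 574 IAF cells. The part of such cells and of depth in the values was not tested. The IAF and OAF subclusters were drawn in each group apart, so the part of this border in the values was not tested, and no test is given. In NP cells 1 member (Mkx) did not overlap, with 2.75% of all genes lower in that way.

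The names NP and IAF are uncertain in LDP, and this decides which cells these values compare. With the 2 names exchanged, the same 6 members were lower without overlap in the LDP cells against the CON IAF cells (4.26% of all genes), with Tnmd at 43.3 to 117 CPM in CON and 12.1 to 36.4 CPM in LDP and Myoc at 15.0 to 61.8 and 2.10 to 10.8 CPM. Against the CON NP cells Mkx and Tnc were then lower without overlap (9.56% of all genes). The LDP cells called NP had median depths of 7894 to 10580 UMIs, further from the CON IAF cells, so the exchange does not test the part of depth.

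The share of OAF cells among disc cells was 14.6, 13.4, 9.28 and 10.1% in CON and 6.29, 16.4, 9.27 and 15.0% in LDP. The LDP libraries lay on both sides of the CON libraries. The means of 11.8 ± 2.52% and 11.7 ± 4.76% (SD, n = 4) differed by −0.11 percentage points (exact two-sided permutation test, p = 0.971, smallest possible p 0.0286). With the rat as replicate block the exact sign-flip p was 0.875, but its smallest possible p was 0.125, so it could not fall under 0.05. With cells carrying pericyte or Schwann cell UMIs left out of the OAF cells, but not of the disc cells they were divided by, the shares were 8.97 to 14.1% in CON and 5.30 to 14.1% in LDP.

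Over the whole IVD class, which could be followed at both times, no member was called at 2 weeks. limma called 0.181% of 11572 genes (21). Of the 8 members, 7 had a negative difference, with a median of −0.39 against −0.08 for all genes. In none of the 8 did the LDP libraries all lie on one side of the CON libraries, as 7.24% of all genes did.

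Scx in the IVD class was 31.8, 22.6, 24.3 and 19.1 CPM in CON and 10.5, 24.2, 12.2 and 31.1 CPM in LDP at 2 weeks. It was lower in rats 1 and 3 and higher in rats 2 and 4. Tnmd, at 203, 191, 178 and 84.1 CPM in CON and 72.8, 283, 199 and 206 CPM in LDP, was lower in rat 1 alone. In that rat the LDP library also had the smallest OAF share, 6.29%.

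Myoc (159.6, 142, 113 and 80.4 CPM in CON, 38.6, 123, 39.3 and 88.3 CPM in LDP) differed by −0.90 ± 0.40 (SE, adjusted p 0.427 by limma). It was lower in 3 of 4 rats and the groups overlapped. Pla2g2a (253, 122, 227 and 185 CPM in CON, 82.6, 144, 67.9 and 139 CPM in LDP) differed by −0.87 ± 0.32 (adjusted p 0.347), again lower in 3 of 4 rats. The 95% intervals of these differences were −1.79 to −0.01 and −1.58 to −0.17. Without rat 1 the difference of Myoc was −0.52.

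**Figure D3:**
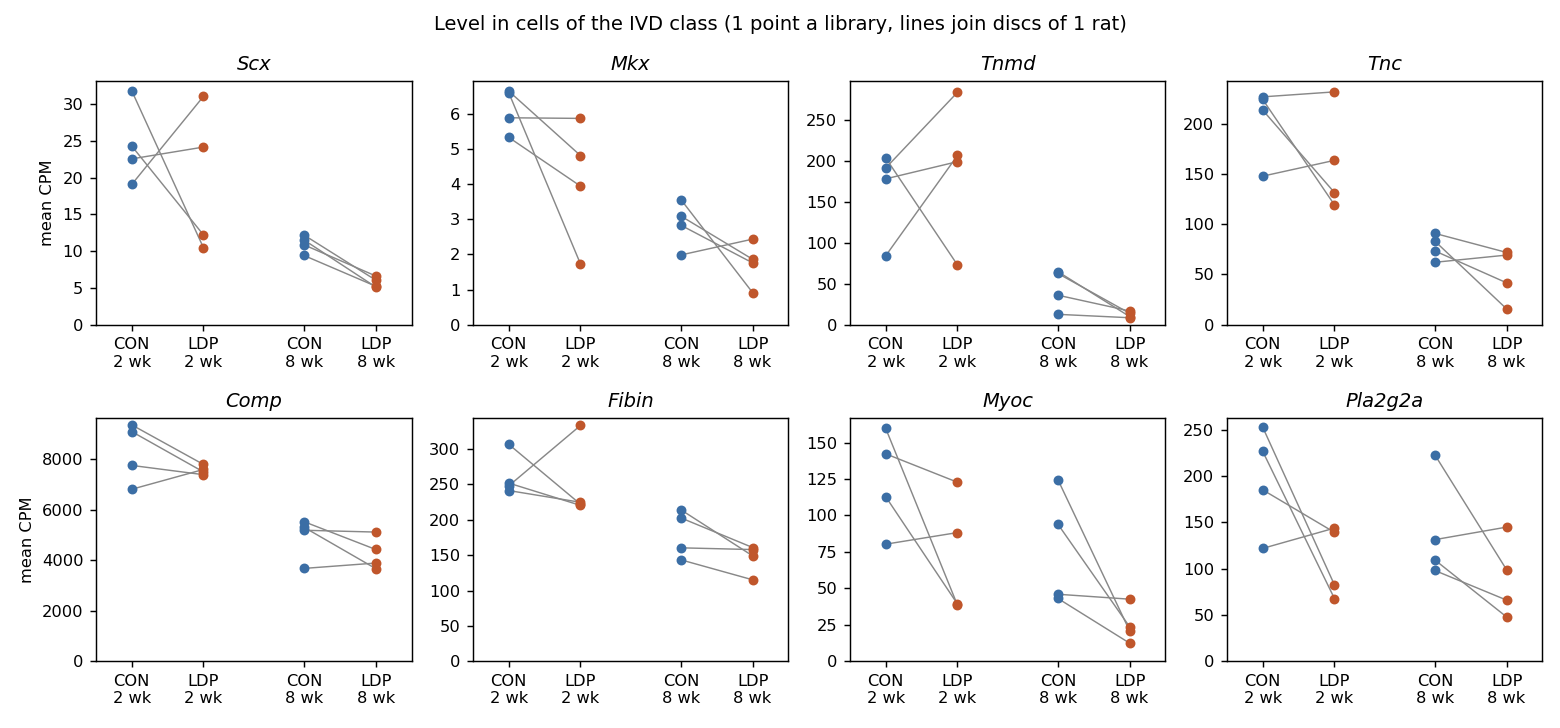
Mean CPM of each gene in IVD-class cells of the 16 libraries, with lines joining the CON and LDP discs of 1 rat, axes starting at 0. At 8 weeks all lines of Tnmd, Scx, Myoc and Fibin fall, while at 2 weeks all lines of Mkx fall and those of every other gene go both ways. The 8-week CON points of 6 genes lie below all CON points of 2 weeks.

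At 8 weeks after puncture all 8 members had negative differences, and again none passed the test. The 2 largest were those of Myoc and Tnmd, on the log2 scale. limma called 0.259% of the 11572 genes (30, with 17 lower), and the members' median of −0.76 stood beside −0.16 for all genes. That shift of all genes was −0.02 with TMM scaling, under which all 8 members also remained negative.

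Tnmd was 64.7, 62.5, 12.6 and 36.0 CPM in CON rats 5 to 8 and 9.96, 14.0, 8.50 and 16.8 CPM in LDP. It was lower in 4 of 4 rats, but CON rat 7 lay within the LDP range. The difference was −1.56 ± 0.41 (SE, 95% interval −2.48 to −0.65, adjusted p 0.106 by limma).

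Myoc was 125, 46.0, 43.2 and 94.1 CPM in CON and 21.0, 42.7, 12.5 and 23.7 CPM in LDP, so that every LDP library was below every CON library. The difference was −1.57 ± 0.40 (adjusted p 0.101). Both genes passed the threshold with DESeq2 (adjusted p 0.00401 for Myoc and 0.00480 for Tnmd) and without rat 4 of the 2-week animals, which shares the estimate of spread (0.0486 and 0.0490). Over all other alternatives the adjusted p of both stayed above 0.05.

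Scx was 12.2, 9.43, 11.5 and 10.9 CPM in CON and 6.08, 5.24, 5.14 and 6.64 CPM in LDP. Its groups did not overlap, as for 11.2% of all genes in that direction, and the difference of −0.83 ± 0.29 had an adjusted p of 0.168 by limma. Tnc was 83.1, 73.4, 62.1 and 90.8 CPM in CON and 15.7, 41.7, 69.2 and 71.8 CPM in LDP (−0.83 ± 0.33, adjusted p 0.211), lower in 3 of 4 rats, with LDP rat 5 the lowest. Without rat 5 the difference of Tnc was −0.33.

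Pla2g2a (109.5, 98.2, 131 and 223 CPM in CON, 48.0, 66.2, 145 and 98.95 CPM in LDP) and Mkx (3.56, 3.09, 2.83 and 1.99 CPM, and 0.913, 1.86, 1.76 and 2.44 CPM) were lower in 3 of 4 rats each. Fibin (202, 160.2, 143 and 214 CPM, and 161, 158, 115 and 149 CPM) was lower in 4 of 4 rats and Comp (5181, 3673, 5301 and 5521 CPM, and 5109, 3885, 3667 and 4423 CPM) in 3 of 4. Their differences were −0.69, −0.51, −0.30 and −0.20 with adjusted p of 0.248 to 0.362 by limma, and all groups overlapped. Without rat 5 the difference of Mkx was −0.26.

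The effects at the 2 times were compared directly. The difference of the LDP effects, 8 minus 2 weeks, was −1.70 ± 0.58 for Tnmd (unadjusted p 0.0148, adjusted p 0.999943 by limma) and −0.67 ± 0.57 for Myoc. limma called 0% of the 11572 genes (0, with 206 or 1.78% at an unadjusted p under 0.05), edgeR 0 and DESeq2 13. No member's puncture effect was called different between the times.

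**Figure D4:**
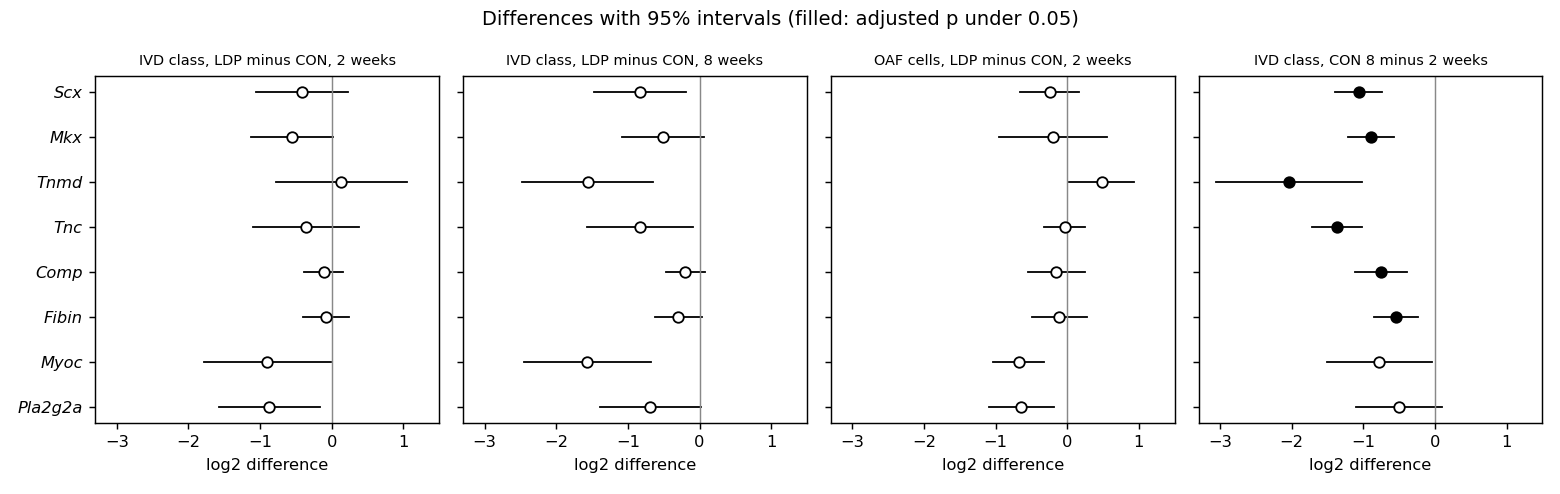
Log2 difference with its 95% interval (limma) for each gene in 4 comparisons, filled where the adjusted p was under 0.05. Filled points are found for 6 genes between control discs of 8 and 2 weeks, and for none between LDP and CON.

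Control discs were then compared between the times, in a fit with no rat block because the animals differ. Of the 8 members, 6 were lower in CON discs at 8 weeks than in CON discs at 2 weeks, where limma called 19.3% of 11201 genes (11.8% lower, 7.47% higher). The 8-week rats were also older, and were other animals, so age, time after surgery and handling of the libraries cannot be told apart.

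Tnmd fell by 2.04 on the log2 scale (44.0 ± 24.6 CPM at 8 weeks and 164 ± 54.3 CPM at 2 weeks, SD, n = 4, adjusted p 0.0138 by limma). Tnc fell by 1.37 (77.3 ± 12.4 and 203 ± 37.2 CPM, adjusted p 0.00105) and Scx by 1.07 (11.0 ± 1.19 and 24.5 ± 5.37 CPM, adjusted p 0.00180). Mkx fell by 0.89 (adjusted p 0.00361), Comp by 0.75 (0.0126) and Fibin by 0.55 (0.0215). None of these 6 groups overlapped, as for 14.5% of all genes in that direction, and the call of Fibin was lost without rat 1 (adjusted p 0.0619) or rat 6 (0.0551).

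Myoc (−0.78, adjusted p 0.124) and Pla2g2a (−0.51, adjusted p 0.209) were not called. Their 8-week CON libraries overlapped those of 2 weeks. Myoc passed without rat 5 (adjusted p 0.0453) and Pla2g2a without rat 8 (0.0499). Whether Myoc and Pla2g2a differed from the other members in this change was not tested.

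Because no OAF subcluster was given at 8 weeks, disc cells with more Col1a1 than Col2a1 were taken in every library. At 2 weeks this set held 86.4 to 97.8% of the OAF cells, and 38.0 to 69.1% of the set were OAF cells. The limit was set after the data had been seen, and 6.16 to 23.0% of disc cells at 2 weeks lay within 2-fold of it, so the values are a description with no test. A cell with a UMI of neither gene counts as within 2-fold. Medians of Cdh5, Lyz2 and Cd79b were 0 in every library. A gene seen in a minority of cells has a median of 0, so these medians do not show that other cell types were absent. The summed level of 7 bone genes in this set was 1014, 2430.2, 1725 and 591 CPM in CON rats 5 to 8 and 2358, 6281, 11687 and 757 CPM in LDP at 8 weeks. It was higher in LDP in 4 of 4 rats with overlapping groups. The pericyte and smooth muscle sum did not overlap at 8 weeks, at 120 to 159 CPM in CON and 92.0 to 114 CPM in LDP, nor at 2 weeks, where it was higher in LDP (115 to 304 CPM in CON, 367 to 448 CPM in LDP). The fibroblast sum was lower in LDP without overlap at 2 weeks (4108 to 4533 CPM in CON, 2740 to 3770 CPM in LDP) and overlapped at 8 weeks. Between the control groups the endothelial sum did not overlap, at 279 to 474 CPM at 8 weeks and 509 to 760.0 CPM at 2 weeks. The part of these genes in the values below was not tested.

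At 8 weeks 16.5 to 28.5% of CON and 17.4 to 26.8% of LDP disc cells lay within 2-fold of the limit, more than were in the set in all 8 libraries (1.05 to 1.90 times as many in CON and 2.10 to 8.84 times in LDP). Any cells with a UMI of neither gene are among them and were not counted apart. The share of the set depends on the limit, and on the level of Col1a1 itself.

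These cells were 15.6, 27.2, 9.87 and 12.8% of disc cells in CON at 8 weeks and 3.03, 8.38, 9.19 and 5.92% in LDP. LDP was lower in 4 of 4 rats and the groups did not overlap, although CON rat 7 and LDP rat 7 were close. At 2 weeks the shares were 17.7 to 30.5% in CON and 7.86 to 25.7% in LDP, with overlap.

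Within these cells Tnmd was 404, 227, 126 and 264 CPM in CON and 315, 160.1, 87.7 and 235 CPM in LDP at 8 weeks. It was lower in 4 of 4 rats, by less than in the whole IVD class, and the groups overlapped. At 2 weeks CON cells of this kind had held 437 to 896 CPM, above all 8-week values.

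Myoc was 772, 165, 417 and 683 CPM in CON and 683, 508, 129 and 371 CPM in LDP at 8 weeks, and the groups overlapped. Pla2g2a was 625, 323, 1271 and 1608 CPM in CON and 1280.0, 494, 1394 and 1443 CPM in LDP, higher in LDP in 3 of 4 rats. No member had groups that did not overlap between LDP and CON within these cells at 8 weeks, as against 6.37% of all genes. Between CON at 8 and 2 weeks, Tnmd, Scx, Mkx and Tnc did not overlap, all lower at 8 weeks (6.83% of all genes).

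**Figure D5:**
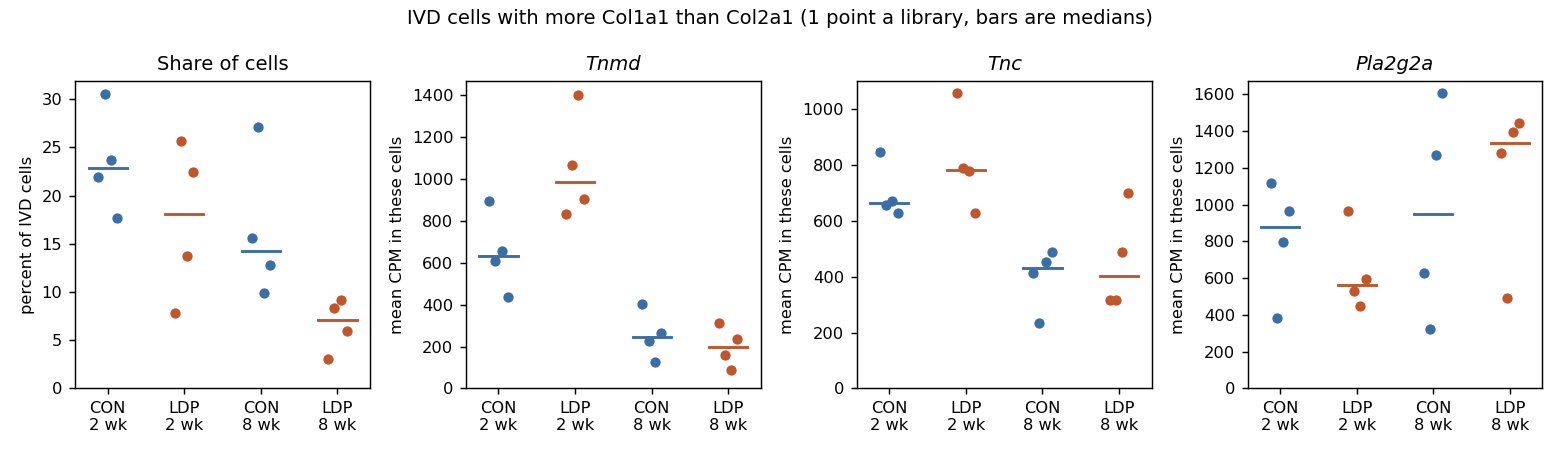
Share of disc cells with more Col1a1 than Col2a1, and mean CPM of Tnmd, Tnc and Pla2g2a in those cells, for 16 libraries (1 point each, bars are medians, axes start at 0). The share was 9.87 to 27.2% in CON and 3.03 to 9.19% in LDP at 8 weeks, and Tnmd and Tnc were lower in CON at 8 weeks than at 2 weeks.

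Other genes of tendon and ligament matrix, collagen assembly and growth factor signalling (52 tested of a list of 61) were counted in the same fits. In the IVD class 0 of 52 were called in either direction after puncture at 2 weeks or at 8 weeks, with medians of −0.28 and −0.51 (all genes −0.08 and −0.16) and 44 and 47 negative differences. Over all genes 0.181% and 0.259% were called. In OAF cells 1 of 51 was called, beside 1.47% of all genes, so that this count says nothing about the list. It was Pdgfra, a growth factor receptor of fibroblasts, which fell by 0.82 (adjusted p 0.0160 by limma).

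Between control discs of 8 and 2 weeks, 31 of the 52 genes were lower and 0 higher, beside 11.8% lower and 7.47% higher of all genes. Their median was −0.74 and that of all genes −0.02. Among them were the fibrillar collagens Col1a1 (fell by 2.26, adjusted p 0.00105 by limma) and Col3a1 (fell by 1.71, adjusted p 0.00165), elastin (Eln, fell by 2.58) and the collagen-binding protein Sparc (fell by 1.76). Of 6 outer annulus genes (the 5 by which the study names OAF cells, Igfbp5, Igfbp6, Lum, Myoc and Fibin, with Col1a1 added here), 0 were called after puncture at either time. Between the control groups 4 were lower (Col1a1, Igfbp5, Lum and Fibin), beside the 11.8% of all genes.

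Sums of other cell type lists also differed in these comparisons. The summed level of the fibroblast list in the IVD class was 2459 to 2731 CPM in CON and 1351 to 1757 CPM in LDP at 2 weeks, and 1484 to 1953 and 785 to 1256 CPM at 8 weeks, without overlap between LDP and CON at either time. Of its 7 genes tested, 1 was called after puncture at each time by limma (Gsn, which fell by 0.86 and 0.80), beside 0.181% and 0.259% of all genes. The endothelial sum did not overlap at 8 weeks, at 105 to 124 CPM in CON and 66.3 to 95.6 CPM in LDP. The pericyte and smooth muscle sum overlapped (126 to 185 and 119 to 146 CPM), with 5 negative and 2 positive differences among 7 genes. Of that list Rgs5 did not overlap (5.62 to 12.2 and 0.054 to 2.38 CPM). None of these genes was called. Between the control groups general disc matrix genes were lower as well. The sum of 5 disc genes (Acan, Col2a1, Sox9, Fmod and Comp) was 9031 to 13591 CPM at 8 weeks and 19557 to 28739 CPM at 2 weeks in the IVD class, and 7914 to 13786 and 14225 to 18553 CPM in the cells with more Col1a1 than Col2a1. In the IVD class 3 of the 5 were called lower, Col2a1 (fell by 2.04), Acan (fell by 0.70) and the member Comp. The fibroblast, endothelial and skeletal muscle sums were all lower at 8 weeks without overlap, and 6 of 7 fibroblast and 5 of 7 endothelial genes were called lower, beside 11.8% of all genes. The part of these cell types in the members' values was not tested.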

How the data were processed

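The authors sequenced 10x Genomics 3′ libraries, processed them in Partek (rn6, per the labels), kept cells by mitochondrial share, gene and UMI limits, and clustered each group separately by K-means. How reads were aligned, and whether doublets or free RNA were removed, is not given in the sources used here, and no doublet caller was run. Deposited gene values are log2(CPM + 1) per cell, made by the authors, beside deposited expected counts summed per cell, the deposited percent of mitochondrial reads and the deposited counts of expressed genes. Dividing out the cell total gave whole counts (within 0.02) for 99.4 to 99.5% of values.

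Members, lists and tests were chosen with earlier results of these data known. Mean CPM per library and class was fitted by limma 3.58.1 (R 4.3.3, trend, pseudocount 1, at least 1 CPM in 4 libraries, rat as block except between CON groups), with adjusted p under 0.05 called. edgeR 4.0.16 and DESeq2 1.42.0 on recovered counts were alternatives. Fits and permutation tests were tested on simulated data. Cells were thinned to 1000 UMIs by random draws. Within a group each library is a separate rat, with 2 discs pooled, and each rat gave a CON and an LDP library. Pairing rests on the animal: correlations of the paired libraries' deviations were −0.15, 0.20, 0.14, −0.18, 0.14, 0.45, 0.03 and 0.38 for rats 1 to 8. Genes named were the 8 members, up to 4 of a list, and the 3 genes most like each member. The Schwann cell list here was S100b, Sox10, Mbp, Ncmap and Cdh19, and its other genes are not reported here. Cell numbers set the precision within a library, and counting error is separate from the spread between rats. The authors' subcluster numbers were named here: in CON by the study's text (1 is NP) and OAF genes, and in LDP by depth alone, NP as the deeper of the pair with high Acan, and other markers go both ways.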

Additional observations from a re-analysis of the deposited data

Results flagged for a closer look

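Among 82 groups of 4 libraries (member levels in IVD, NP, IAF and OAF cells and the OAF share), 7 held a library far from its 3 neighbours, and chance flags about 1 group in 20. In CON at 2 weeks, Fibin in IVD cells was 306 CPM in rat 1 (others 241 to 252), Tnc in IVD cells was 148 CPM in rat 4 (others 213 to 227), Tnmd in OAF cells was 609 CPM in rat 4 (others 1136 to 1244) and Comp in OAF cells was 9642 CPM in rat 2 (others 5694 to 6138). In LDP at 2 weeks, Fibin was 333 CPM in IVD cells (others 220.1 to 224) and 254 CPM in NP cells (others 142 to 159.6) of rat 4, and Tnmd was 22.7 CPM in IAF cells of rat 2 (others 13.5 to 14.9). Without rat 4 the difference of Tnmd in OAF cells was 0.28 on the log2 scale, in place of 0.48.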

How the results depend on the processing

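With the rat as replicate block left out, limma called 10 genes in the IVD class at 2 weeks in place of 21, and 3 for the difference of the LDP effects in place of 0. No member's call changed without the block. DESeq2 called 285 genes at 2 weeks, 566 at 8 weeks in place of 30, and 13 for the difference. Over all cells of a library the counts were 0 at 2 weeks and 1 at 8 weeks, and with a pseudocount of 10 the count at 2 weeks was 3. Without cells carrying pericyte or Schwann cell UMIs, an alternative added after seeing the data, OAF cells had 19 calls in place of 172. Leaving out 1 rat gave 0 to 7 calls at 2 weeks, 1 to 529 at 8 weeks (529 without rat 4), 0 to 13 for the difference, 1124 to 2486 between CON groups and 120 to 287 in OAF cells, and moved the difference in OAF share between −1.75 and 2.62 points (2.62 without rat 1). All 8 members stayed negative at 8 weeks and between CON groups under every alternative run. In OAF cells signs turned for Scx (0.066 with edgeR, 0.065 with DESeq2 in place of −0.24), Fibin (0.016 with edgeR, 0.016 with DESeq2, 0.067 without the pericyte and Schwann cells), Tnc (0.14 with edgeR, 0.14 with DESeq2, 0.11 without those cells) and Comp (0.021 without them). Leaving out 1 rat turned signs in IVD cells at 2 weeks for Fibin (−0.25 to 0.044) and Tnmd (−0.25 to 0.67), for the difference in Comp (−0.18 to 0.027), Mkx (−0.26 to 0.30), Pla2g2a (−0.10 to 0.56) and Tnc (−0.80 to 0.029), and in OAF cells for Comp (−0.27 to 0.066), Fibin (−0.31 to 0.041), Mkx (−0.42 to 0.30) and Tnc (−0.10 to 0.015). The cause was not tested. With the names NP and IAF exchanged in LDP, also added after seeing the data, members lower without overlap were 2 in place of 1 in NP cells and 6 as before in IAF cells. Over all genes the shares were 9.56% in place of 2.75% in NP cells and 4.26% in place of 7.21% in IAF cells. Leaving out 1 rat moved 24 of 40 member differences by over 1.5 times, among them 0 of the 6 called. Of 520 differences of single members under the alternatives, 486 kept their direction and side of the threshold, 24 reversed, 8 gained a call and 2 lost one. Mkx and Scx rest on few UMIs per cell, which limits their precision.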

Other observations

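Pla2g2a was also found in a few immune cells. Myeloid cells held 308 CPM in CON rat 5 at 8 weeks and 198 CPM in CON rat 1 at 2 weeks, from 117 UMIs in 14 of 147 cells and 134 UMIs in 15 of 259 cells. In lymphoid cells of LDP rat 8 at 8 weeks the 60.2 CPM came from 60 UMIs in 2 of 193 cells. Mkx in lymphoid cells reached 76.7 CPM in CON rat 8, a mean that rests on 1 UMI among 7 cells.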
